A study of Homo sapiens with 8 samples.

Results

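In HS578T cells, 10 apoptosis regulator genes were followed: the inhibitor-of-apoptosis genes BIRC2 and BIRC3, the death receptor genes FAS and TNFRSF10B, the death receptor inhibitor CFLAR, and the BCL2 family genes BCL2L1, MCL1, BCL2L11, PMAIP1 and BBC3. These 10 genes were taken by name from the 60708 genes of the deposited count table, and all 10 passed the filter on low counts that left 16008 genes for testing. They were chosen by name with the fitted changes of these same libraries known, among them the high BIRC3 counts under HSF2 overexpression. The HSF2oe values of BIRC3 below are therefore a description without a test. The other genes keep their adjusted p over all tested genes, which takes no account of this choice.

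HS578T is an established human breast carcinoma line. The 4 groups of 2 libraries combined a plasmid with a treatment. Mock cells received a plasmid for green fluorescent protein and HSF2oe cells one for heat shock factor 2 (HSF2), in both cases 25 µg of DNA. From 24 h after transfection, cells stayed for 24 h in assay medium alone (Mock control and HSF2oe control) or in medium with 10 ng/ml transforming growth factor β1 (Mock TGF-β and HSF2oe TGF-β). All groups therefore carry transfected DNA. The design names 2 biological replicates, and nothing else in the labels says how they were separated. One label field contradicts the titles, since it lists DMSO for all Mock and TGF-β1 for all HSF2oe libraries. Groups were therefore assigned by title.

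Library totals ranged from 17427645 to 34336107 assigned read pairs. Levels are CPM (counts scaled to library size) after TMM scaling, a normalisation that equalises most genes between libraries, and 3 counts correspond to 0.0851 to 0.195 CPM. HSF2 itself read 8.36, 6.44, 5.40 and 5.76 CPM in the Mock libraries. It read 937 and 616 CPM in HSF2oe control and 780 and 489 CPM in HSF2oe TGF-β, so every library fitted its plasmid label. The HSF2 level was thus unequal among HSF2oe libraries, higher in the first replicate of each group. Its part in the HSF2oe values below was not tested. Of the epithelial markers, EPCAM stayed at or under 0.128 CPM and KRT19 at or under 0.193 CPM, while KRT18 read 178 to 275 CPM. The 5 mesenchymal markers summed to 49000 to 56870 CPM in Mock control, 97310 to 107100 CPM in Mock TGF-β, 42050 to 42640 CPM in HSF2oe control and 66200 to 70390 CPM in HSF2oe TGF-β. With TGF-β, 4 of the 5 rose in either plasmid, and with HSF2oe 2 fell without and 3 with TGF-β. The part of this shift in the values below was not tested. The cells are labelled as epithelial, and of the 7 epithelial markers EPCAM and KRT19 were near 0. Group means of the others beside KRT18 were 16.15 to 24.82 CPM for KRT8 and 5.40 to 9.79 CPM for KRT7. CLDN4 had group means of 1.13 to 1.58 CPM and CDH1 of 0.316 to 1.08 CPM. CD3E and HBB had no count in any library, but the 6 blood markers summed to 0.853 to 2.21 CPM, with CD68 detected in every group. The 5 endothelial markers summed to 3.155 to 5.748 CPM.

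Cells can be driven into apoptosis along 2 routes. Death receptors such as FAS and TNFRSF10B recruit an adaptor and initiator caspases at the cell surface, where the product of CFLAR blocks caspase activation and the ubiquitin ligases encoded by BIRC2 and BIRC3 hold receptor complexes in a survival state. At mitochondria, BH3-only proteins such as those of BCL2L11, BBC3 and PMAIP1 bind and neutralise the survival proteins of BCL2L1 and MCL1, which otherwise restrain pore formation. BIRC3 and CFLAR are textbook NF-κB targets, FAS, TNFRSF10B, BBC3 and PMAIP1 are known to be induced by DNA damage, and TGF-β is known to induce apoptosis in some epithelial cells through BH3-only genes.

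Promoter sequence is shown for the 3 genes that differ most between HSF2oe and Mock cells, so that the count data can be read beside the DNA in front of each gene. RefSeq promoters (GRCh38.p14) were matched for 8 of the 10 genes. The windows end before the first exon of the count table's annotation and run 5′ to 3′ on the gene's strand. Capitals mark matches to the NF-κB consensus on either strand.

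BIRC3, chr11:102317234-102317449, plus strand: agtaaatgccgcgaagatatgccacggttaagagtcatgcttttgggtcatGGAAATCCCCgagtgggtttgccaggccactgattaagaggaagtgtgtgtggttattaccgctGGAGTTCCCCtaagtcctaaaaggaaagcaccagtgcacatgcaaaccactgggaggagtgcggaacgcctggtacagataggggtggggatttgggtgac
PMAIP1, chr18:59899746-59899995, plus strand: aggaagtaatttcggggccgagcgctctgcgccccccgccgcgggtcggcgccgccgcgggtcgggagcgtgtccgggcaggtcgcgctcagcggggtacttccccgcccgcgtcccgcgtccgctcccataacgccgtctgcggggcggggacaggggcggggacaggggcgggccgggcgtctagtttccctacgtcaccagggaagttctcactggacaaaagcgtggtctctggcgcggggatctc
BBC3, chr19:47232767-47232917, minus strand: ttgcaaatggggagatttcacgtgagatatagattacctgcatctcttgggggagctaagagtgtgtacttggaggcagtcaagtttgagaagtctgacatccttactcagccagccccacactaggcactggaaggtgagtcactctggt

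The BIRC3 window held 2 NF-κB consensus matches, GGAAATCCCC beginning 165 bases and GGAGTTCCCC beginning 101 bases before the annotated start of the gene. The PMAIP1 and BBC3 windows held none. Of 35116 RefSeq promoter windows of 250 bases, 9.96% held at least 1 such match on either strand. The heat shock factor pair motifs GAANNTTC (5.78% of windows) and TTCNNGAA (6.62%) had no match in any of the 3 printed windows. The SMAD core CAGAC, present in 13345 of the 35116 windows, was matched on the minus strand of PMAIP1 at 113 bases and of BBC3 at 59 bases before the annotated start. CFLAR has several start sites in the table, and 1 of its windows held both an NF-κB match, GGGGAATTCC, and a TTCNNGAA match, TTCTAGAA. Another CFLAR window held a GAANNTTC match, GAAGTTTC, and 1 of the FAS windows held an NF-κB match, GGGGGACCCC. The windows of BIRC2, BCL2L1 and BCL2L11 held no match to these 3 motifs. A letter match describes the window and says nothing of binding.

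BIRC3 (ENSG00000023445.16, chromosome 11, 102317450 to 102339403, plus strand, GRCh38) encodes cIAP2, and its level separated the plasmids most of all 10 genes. Its raw counts stood at 62 and 41 for Mock control, 15 and 8 for Mock TGF-β, 307 and 251 for HSF2oe control, and 260 and 126 for HSF2oe TGF-β. Scaled, that was 2.32 and 1.16 CPM in Mock control, against 0.977 and 0.394 CPM in Mock TGF-β. The HSF2oe control libraries read 9.86 and 7.78 CPM and the HSF2oe TGF-β libraries 8.09 and 5.37 CPM. Every HSF2oe library lay above every Mock library. The fitted HSF2oe difference was 5.17-fold without TGF-β (log2 2.37 ± 0.32, SE) and 10.4-fold with TGF-β (log2 3.37 ± 0.42), as a description. In bulk RNA, more cells with a transcript and more transcript per cell cannot be told apart. The difference with TGF-β rests on a denominator of 15 and 8 counts. Without the first Mock TGF-β library the log2 value became 4.09 and without the second 2.79.

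The TGF-β change of BIRC3 in Mock cells did not pass the test. Both Mock TGF-β libraries lay below both Mock control libraries, with a log2 change of -1.38 ± 0.48 (adjusted p = 0.0792, edgeR's quasi-likelihood F test, Benjamini-Hochberg adjustment over all 16008 genes). The adjusted p of this BIRC3 change ranged from 0.00108 to 0.471 over the 15 alternatives run, and it passed 0.05 in 5 of them. Those were library totals as the only scaling, no filter on low counts, the replicate block, DESeq2 (adjusted p = 0.0254) and the fit without the second Mock control library (adjusted p = 0.0217, log2 change -1.83). The BIRC3 change was -0.84 without the first Mock control library, -2.10 without the first Mock TGF-β library and -0.80 without the second. In HSF2oe cells the change was -0.38 ± 0.28 with overlapping libraries. The difference between these effects, 1.00 ± 0.56, did not pass (edgeR adjusted p = 0.854), and ran from 0.42 to 1.72 with 1 library left out, the extremes coming without the second and the first Mock TGF-β library.

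BIRC2 (ENSG00000110330.9, chromosome 11, 102347211 to 102378670, plus strand) encodes cIAP1, the close relative of cIAP2, and starts 7807 bases downstream of BIRC3 on the same strand. Mock control libraries read 35.6 and 35.0 CPM, Mock TGF-β libraries 32.0 and 34.2 CPM, HSF2oe control libraries 49.0 and 36.0 CPM and HSF2oe TGF-β libraries 43.6 and 35.4 CPM. The HSF2oe libraries lay above the Mock libraries in both comparisons, narrowly for the second replicate of each. Log2 differences were 0.27 ± 0.14 without and 0.26 ± 0.14 with TGF-β, and neither passed (edgeR adjusted p = 0.233 and 0.230). Without TGF-β, the fitted differences of the neighbouring genes were thus 1.21-fold (BIRC2) and 5.17-fold (BIRC3).

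**Figure D1:**
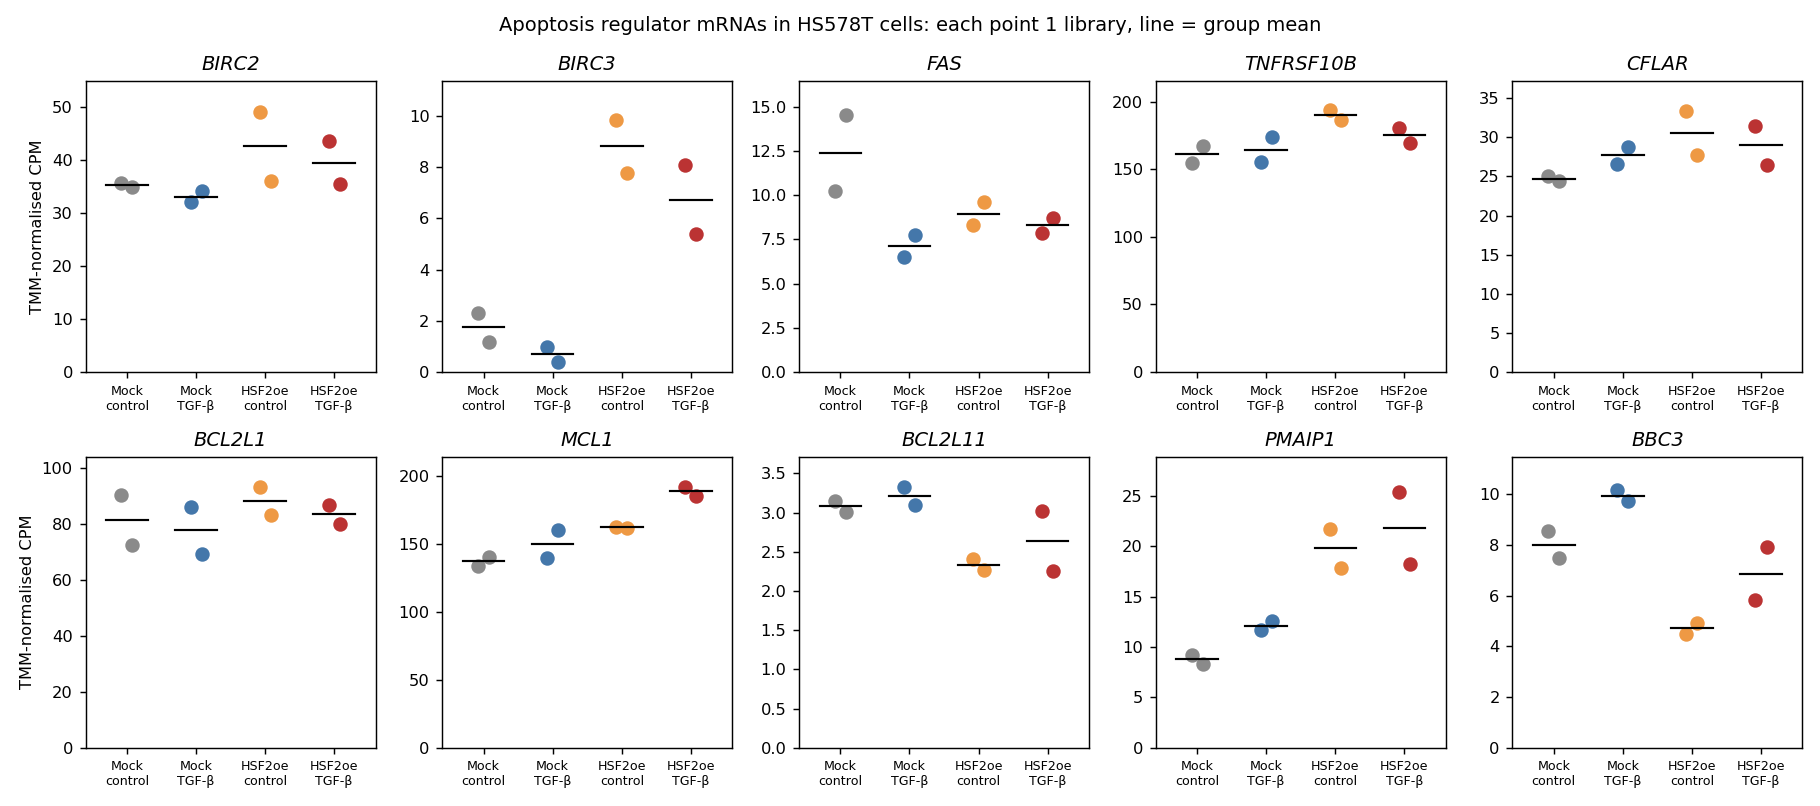
TMM-normalised CPM of the 10 genes on the y axis (linear, from 0) by group on the x axis; each point is 1 library and each line the mean of 2. BIRC3 and PMAIP1 are high in all 4 HSF2oe libraries, BBC3 is lower in HSF2oe than in Mock at matched treatment, and FAS is highest in Mock control.

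FAS (ENSG00000026103.22, chromosome 10, 88990531 to 89017059, plus strand) encodes the receptor for FAS ligand and fell with TGF-β in Mock cells. It read 10.2 and 14.6 CPM in Mock control, against 6.51 and 7.73 CPM in Mock TGF-β. HSF2oe control libraries read 8.29 and 9.61 CPM and HSF2oe TGF-β libraries 7.88 and 8.70 CPM. Mock control was the highest group and overlapped no other, while the HSF2oe groups overlapped each other. The TGF-β change in Mock cells was -0.80 ± 0.19 on the log2 scale (adjusted p = 0.0116, edgeR's quasi-likelihood F test, Benjamini-Hochberg adjustment). Over 16 alternatives the adjusted p of FAS ran from 1.03e-04 to 0.137. The call was lost without the second Mock control library (log2 change -0.52, adjusted p = 0.137) and without the first Mock TGF-β library (-0.69, adjusted p = 0.0791).

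In HSF2oe cells the TGF-β change of FAS was -0.11 ± 0.18. Without TGF-β both HSF2oe libraries lay below both Mock libraries (log2 difference -0.48 ± 0.18, edgeR adjusted p = 0.0995), and with TGF-β both lay above them (0.21 ± 0.19, edgeR adjusted p = 0.489). The difference without TGF-β passed without the first Mock control library (-0.70, edgeR adjusted p = 0.0326), and without the second it was -0.19. The test of the difference between the TGF-β effects gave 0.68 ± 0.26, with an unadjusted p of 0.0215 and an edgeR adjusted p of 0.779. In the annotation, 40.6% of the exonic bases of FAS are shared with RP11-399O19.9, FAS-AS1 or ACTA2. Counting ignored strand, and reads overlapping several genes are by default assigned to none. ACTA2, the smooth muscle actin gene next door, read 248 and 312 CPM in the Mock control libraries, 720 and 871 CPM in those of Mock TGF-β, 72.5 and 124 CPM in those of HSF2oe control, and 246 and 400 CPM in those of HSF2oe TGF-β. The part of these shared bases in the FAS values was not tested.

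TNFRSF10B (ENSG00000120889.13, chromosome 8, 23020133 to 23069031, minus strand) encodes the TRAIL receptor DR5. It read 155 and 168 CPM in the Mock control libraries, 155 and 174 CPM in those of Mock TGF-β, 194 and 186 CPM in those of HSF2oe control, and 181 and 170 CPM in those of HSF2oe TGF-β. Without TGF-β the plasmid groups did not overlap (log2 difference 0.24 ± 0.10, edgeR adjusted p = 0.134), and with TGF-β they did (0.09 ± 0.10). No change of this gene passed the test.

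CFLAR (ENSG00000003402.20, chromosome 2, 201116154 to 201176687, plus strand), which encodes the caspase-8 inhibitor cFLIP, read 25.0 and 24.4 CPM in Mock control, against 26.6 and 28.8 CPM in Mock TGF-β. HSF2oe control libraries read 33.4 and 27.8 CPM and HSF2oe TGF-β libraries 31.4 and 26.5 CPM. Both HSF2oe control libraries lay above both Mock control libraries, by 0.31 ± 0.12 on the log2 scale (edgeR adjusted p = 0.119), and the difference was 0.07 ± 0.12 with TGF-β. The NF-κB target pair BIRC3 and CFLAR therefore showed differences of unlike size in the same libraries.

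Of the survival genes of the BCL2 family, MCL1 was higher in HSF2oe cells under TGF-β. MCL1 (ENSG00000143384.14, chromosome 1, 150560895 to 150579738, minus strand), which encodes a short-lived survival protein, read 134 and 141 CPM in the Mock control libraries, 140 and 161 CPM in those of Mock TGF-β, 163 and 162 CPM in those of HSF2oe control, and 192 and 186 CPM in those of HSF2oe TGF-β. The HSF2oe TGF-β libraries were the highest pair, and the plasmid groups did not overlap at either treatment. With TGF-β the log2 difference was 0.33 ± 0.10 (adjusted p = 0.0291, edgeR's quasi-likelihood F test, Benjamini-Hochberg adjustment; 0.00153 to 0.209 over 16 alternatives). That MCL1 call was lost without the first Mock TGF-β library (0.23, adjusted p = 0.209), without the first HSF2oe TGF-β library (0.32, adjusted p = 0.126) and without the second (0.36, adjusted p = 0.0643). Without TGF-β the difference was 0.24 ± 0.10 (edgeR adjusted p = 0.122). TGF-β changes of MCL1 were 0.13 ± 0.10 in Mock and 0.22 ± 0.10 in HSF2oe cells, neither past the test.

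BCL2L1 (ENSG00000171552.14, chromosome 20, 31664452 to 31723989, minus strand) encodes BCL-XL and varied more between replicates than between groups. Its libraries read 90.4 and 72.4 CPM in the Mock control libraries, 86.1 and 69.4 CPM in those of Mock TGF-β, 93.4 and 83.3 CPM in those of HSF2oe control, and 86.9 and 80.1 CPM in those of HSF2oe TGF-β. The groups overlapped in all 4 comparisons, and log2 changes ran from -0.08 to 0.12 with SEs of 0.13. Its exons share 41.3% of their bases with the antisense RNA gene ABALON.

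The BH3-only genes PMAIP1 and BBC3 changed in opposite directions under HSF2 overexpression. Both were chosen with these changes known, and their adjusted p values below take no account of that choice. PMAIP1 (ENSG00000141682.12, chromosome 18, 59899996 to 59904305, plus strand) encodes NOXA, which binds MCL1. It read 9.22 and 8.31 CPM in Mock control, against 11.7 and 12.6 CPM in Mock TGF-β. HSF2oe control libraries read 21.7 and 17.8 CPM and HSF2oe TGF-β libraries 25.4 and 18.3 CPM. Every HSF2oe library lay above every Mock library. PMAIP1 rose with HSF2oe by 1.18 ± 0.16 without TGF-β, a 2.26-fold difference (adjusted p = 0.00104, edgeR's quasi-likelihood F test, Benjamini-Hochberg adjustment). With TGF-β it rose by 0.85 ± 0.17, or 1.81-fold (edgeR adjusted p = 0.00317). Both calls held under each of the 16 alternatives, with adjusted p of at most 0.0166 and 0.0399. TGF-β gave PMAIP1 a change of 0.47 ± 0.17 in Mock cells, where the groups did not overlap (edgeR adjusted p = 0.0984), and of 0.15 ± 0.16 in HSF2oe cells, where they did.

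BBC3 (ENSG00000105327.18, chromosome 19, 47220822 to 47232766, minus strand) encodes PUMA. It read 8.54 and 7.49 CPM in the Mock control libraries, 10.2 and 9.74 CPM in those of Mock TGF-β, 4.50 and 4.93 CPM in those of HSF2oe control, and 5.82 and 7.93 CPM in those of HSF2oe TGF-β. At matched treatment both HSF2oe libraries lay below both Mock libraries, and within each plasmid both TGF-β libraries lay above both control libraries. BBC3 fell with HSF2oe without TGF-β, with a log2 difference of -0.76 ± 0.18 or 0.590-fold (edgeR adjusted p = 0.0155; 0.00127 to 0.138 over 16 alternatives). That call was lost without the first Mock control library (-0.67, adjusted p = 0.0799), the second (-0.86, adjusted p = 0.0569) or the first HSF2oe control library (-0.70, adjusted p = 0.138). With TGF-β BBC3 fell by 0.54 ± 0.18 on the log2 scale (edgeR adjusted p = 0.0471). This second call was lost in 11 of 16 alternatives, with adjusted p of 0.0204 to 0.384. DESeq2 gave 0.0875, and the fit without the first HSF2oe TGF-β library gave a log2 difference of -0.31 (adjusted p = 0.384). Leaving out any other library but the second HSF2oe TGF-β library also lost it, at adjusted p of 0.0592, 0.0613, 0.140, 0.139, 0.0598 and 0.0610. The TGF-β changes of BBC3, 0.31 ± 0.18 in Mock and 0.53 ± 0.18 in HSF2oe cells, did not pass (edgeR adjusted p = 0.300 and 0.101). In HSF2oe cells this change passed without the first HSF2oe TGF-β library (0.76, adjusted p = 0.0373).

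BCL2L11 (ENSG00000153094.24, chromosome 2, 111119378 to 111168445, plus strand) encodes BIM, a BH3-only protein that binds all survival members. It read 3.15 and 3.01 CPM in the Mock control libraries, 3.32 and 3.10 CPM in those of Mock TGF-β, 2.41 and 2.26 CPM in those of HSF2oe control, and 3.02 and 2.26 CPM in those of HSF2oe TGF-β. The HSF2oe libraries lay below the Mock libraries at both treatments, with log2 differences of -0.40 ± 0.23 and -0.27 ± 0.25 that did not pass. The TGF-β change was 0.06 ± 0.24 in Mock and 0.19 ± 0.24 in HSF2oe cells.

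**Figure D2:**
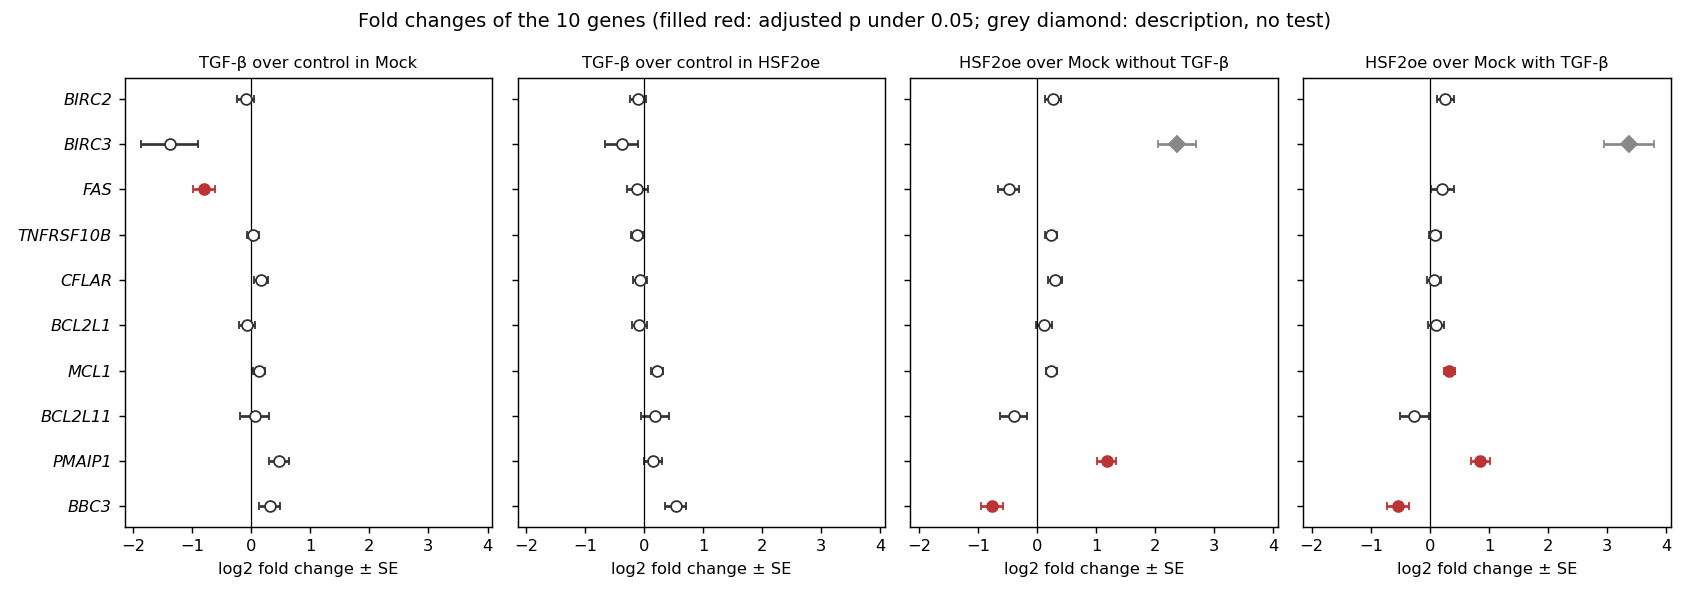
Log2 fold change (x axis, bars are SE) of the 10 genes (y axis) in each of the 4 comparisons; filled red points passed an adjusted p of 0.05, open points did not, and grey diamonds mark BIRC3 values given without a test. BIRC3 stands far right in both HSF2oe panels, at 2.37 and 3.37, while BBC3 lies at -0.76 and -0.54.

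Counted over the genes, TGF-β in Mock cells raised 0 of 10 and lowered 1, FAS, against 7.32% and 6.5% of all tested genes called higher and lower. In HSF2oe cells TGF-β called 0 of 10 by edgeR, against 4.45% and 3.82% of all genes. There 2 of the 10, MCL1 and BBC3, had an unadjusted edgeR p under 0.05, as did 20.1% of all tested genes. DESeq2 also called 0 of the 10 there, and 1291 of all genes. With HSF2oe and no TGF-β, PMAIP1 rose and BBC3 fell among the 9 genes beside BIRC3, against 4.88% and 7.22% of all genes. With HSF2oe under TGF-β, PMAIP1 and MCL1 rose and BBC3 fell, against 9.6% and 11.9%. Since the genes were named with these results known, the HSF2oe counts are printed beside the background and nothing is read from them. The median log2 change of the 10 genes was 0.05 and -0.08 for TGF-β in Mock and HSF2oe cells, and 0.24 and 0.16 for HSF2oe without and with TGF-β. The median over all tested genes lay between -0.01 and 0.00 in each. The HSF2oe medians include BIRC3 and rest on genes named with these values known, so nothing is read from them either. The test of a difference between the TGF-β effects called 0% of genes by edgeR, 0 of 16008 (977 at an unadjusted p under 0.05, and 25 adjusted by DESeq2). The TGF-β comparisons share their control and treated libraries with the HSF2oe comparisons, so the values are set side by side only.

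Compared per kilobase of exon, which orders levels of different genes only roughly, TNFRSF10B, MCL1 and BCL2L1 stood highest, in that order, in every group. In Mock control they read 32.1 ± 1.83, 22.1 ± 0.744 and 19.4 ± 3.03 CPM per kilobase (SD, n = 2). The MCL1 and BCL2L1 values differed there by less than their summed SDs. BIRC2 and PMAIP1 followed, at 7.78 ± 0.0904 and 4.01 ± 0.293 in Mock control. In HSF2oe control they read 9.38 ± 2.03 and 9.05 ± 1.27, and in HSF2oe TGF-β PMAIP1 read 9.98 ± 2.31 and BIRC2 8.71 ± 1.28, in neither case apart by more than their spread. BIRC3 was the lowest of the 10 in both Mock groups, at 0.232 ± 0.109 without and 0.0911 ± 0.0548 with TGF-β. In HSF2oe control it reached 1.17 ± 0.195 CPM per kilobase. There CFLAR at 1.36 ± 0.177, BBC3 at 1.48 ± 0.0964 and FAS at 1.60 ± 0.168 formed a run in which no neighbours differed beyond their spread. BCL2L11 was then the lowest, at 0.351 ± 0.0154. In HSF2oe TGF-β, BIRC3 at 0.896 ± 0.256 again stood between CFLAR and BCL2L11. TPM values gave the same ranks, but within a library they differ from CPM per kilobase only by a constant factor, so this is no separate check. The exon length includes bases shared with other genes, whose reads are by default assigned to none. Shared bases made up 41.3% of BCL2L1, 40.6% of FAS, 13.8% of BCL2L11, 12.1% of CFLAR and at most 5.27% of the other genes. Their part in this order was not tested.

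**Figure D3:**
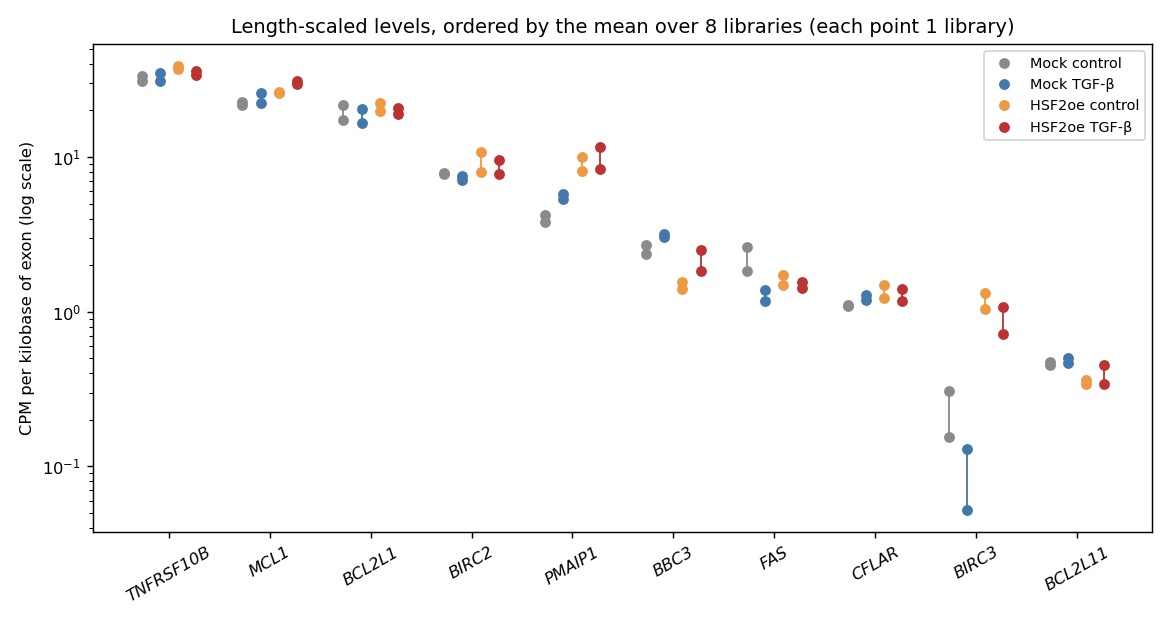
CPM per kilobase of exon (y axis, log scale) for the 10 genes, ordered by their mean over the 8 libraries (x axis); each point is 1 library and colours are the 4 groups. TNFRSF10B is highest at 30.8 or more CPM per kilobase in every library, and BIRC3 spans the widest range, from 0.0524 to 1.31.

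Further genes of the same pathways were read from lists chosen with earlier results known. Calls of individual list genes are given with values where they held under every alternative run, which was so for 26 of the 59 calls named by rule. Among 16 NF-κB pathway genes, 6 rose and 0 fell with HSF2oe at each treatment, with a list median of 0.24 without and 0.26 with TGF-β. Of all tested genes, 4.88% rose and 7.22% fell without TGF-β and 9.6% rose and 11.9% fell with it. RELB, NFKB2, NFKBIB, NFKBIE and TNFAIP3 rose at both treatments, TRAF1 rose without TGF-β and CHUK rose with it. The number of NF-κB list genes that rose ran from 2 to 6 without and from 3 to 11 with TGF-β over the alternatives, and none fell in any. It was 2 without the second Mock control library and 3 without the first HSF2oe control library, and under TGF-β it was 3 without the second library of either plasmid and 11 with library totals as the only scaling. TNFAIP3, which encodes the feedback inhibitor A20, read 28.0 and 27.4 CPM in Mock control and 80.3 and 63.2 CPM in HSF2oe control. It rose with HSF2oe by 1.37 ± 0.16 without and 1.43 ± 0.17 with TGF-β (edgeR adjusted p = 3.84e-04 and 1.60e-04). RELB, the NF-κB subunit of the noncanonical arm, rose by 0.81 ± 0.14 and 0.92 ± 0.15 (edgeR adjusted p = 0.00352 and 0.00114). NFKBIE, an inhibitor of NF-κB, rose by 0.91 ± 0.15 with TGF-β (edgeR adjusted p = 0.00108). TNFAIP3, RELB and NFKBIE were higher in HSF2oe than in Mock cells, as was BIRC3, and a link between them was not tested. The list was chosen with earlier results known, so nothing is read from its counts. With TGF-β, TNFAIP3 and MAP3K14 fell in Mock cells, and TNFAIP3 alone of the 16 fell in HSF2oe cells. In these comparisons 6.5% and 3.82% of all tested genes fell. The TNFAIP3 call in Mock cells (log2 change -0.78, edgeR adjusted p = 0.00766) was lost without the second Mock TGF-β library (-0.55, adjusted p = 0.111).

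Of 14 tested DNA damage response genes, 2 rose and 2 fell under HSF2oe without TGF-β, against 4.88% and 7.22% of all tested genes. With TGF-β, 3 rose and 2 fell, against 9.6% and 11.9% of all tested genes. The list medians were -0.10 and 0.11, and nothing particular to this list is read from these counts. GADD45A and AEN rose and TP53I3 and TP53INP1 fell at both treatments, and CDKN1A rose with TGF-β. GADD45A, a stress-induced growth arrest gene, read 119 and 105 CPM in Mock control and 266 and 252 CPM in HSF2oe control. It rose by 1.21 ± 0.11 without and 1.04 ± 0.11 with TGF-β (edgeR adjusted p = 1.39e-04 and 9.00e-05). AEN, which encodes a nuclease, rose by 0.79 ± 0.14 with TGF-β (edgeR adjusted p = 0.00226). TP53I3 rose by 0.63 ± 0.11 with TGF-β in Mock cells (edgeR adjusted p = 0.00189). At both treatments the direction of PMAIP1 with HSF2oe was thus that of GADD45A and AEN, and not that of BBC3, TP53I3 or TP53INP1.

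A list of ATF4-CHOP stress and FOXO genes, not all of them regulators of BH3-only genes, had calls on both sides. With HSF2oe, 2 rose and 3 fell of 10 without TGF-β, and 3 and 3 with it. Those numbers stand beside 4.88% rising and 7.22% falling of all tested genes without TGF-β, and 9.6% and 11.9% with it. ATF3 and PPP1R15A rose and TRIB3 and CHAC1 fell at both treatments, DDIT3 fell without TGF-β, and E2F1 rose and FOXO1 fell with it. ATF3, a stress transcription factor, read 6.37 and 3.80 CPM in Mock control and 28.2 and 21.9 CPM in HSF2oe control, and rose by 2.32 ± 0.25 (edgeR adjusted p = 3.35e-04). PPP1R15A, which encodes GADD34, rose by 1.08 ± 0.14 and 1.05 ± 0.14 (edgeR adjusted p = 6.53e-04 and 2.88e-04). TRIB3, a pseudokinase gene induced by ATF4 and CHOP, fell by 1.03 ± 0.13 and 1.07 ± 0.13 on the log2 scale (edgeR adjusted p = 5.25e-04 and 1.54e-04). CHAC1, another ATF4 target, fell by 1.02 ± 0.15 with TGF-β (edgeR adjusted p = 4.99e-04). TGF-β raised 3 of these 10 genes in Mock cells, CHAC1, TRIB3 and FOXO1, where 7.32% of all tested genes rose and 6.5% fell. CHAC1 rose by 0.93 ± 0.15 (edgeR adjusted p = 7.38e-04) and FOXO1 by 1.40 ± 0.22 (edgeR adjusted p = 8.99e-04). E2F1, a cell cycle transcription factor, fell by 1.00 ± 0.18 there (edgeR adjusted p = 0.00239). FOXO1 shares 22.7% of its exonic bases with RP11-350A18.2.

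Of 7 tested death receptor, decoy and ligand genes, 2 rose (TNFRSF10D and TNFRSF21) and 1 fell (TNFRSF1A) with HSF2oe at each treatment. Beside these and the adaptor counts below, 4.88% of all tested genes rose and 7.22% fell without TGF-β, and 9.6% and 11.9% with it. TNFRSF10D, which encodes a TRAIL decoy receptor, rose by 0.68 ± 0.11 with HSF2oe without TGF-β (edgeR adjusted p = 0.00255) and by 0.66 ± 0.11 with TGF-β in Mock cells (edgeR adjusted p = 0.00142). TNFRSF21, which encodes death receptor 6, fell with TGF-β by 0.59 ± 0.10 in Mock and 0.75 ± 0.10 in HSF2oe cells (edgeR adjusted p = 0.00134 and 3.94e-04), and rose by 0.56 ± 0.10 with HSF2oe without TGF-β (edgeR adjusted p = 0.00382). TNFRSF11B, which encodes osteoprotegerin, a soluble decoy, fell by 0.99 ± 0.17 with TGF-β in Mock cells (edgeR adjusted p = 0.00144). FASLG, TNFSF10, TNFRSF10C and LTA were under the filter on low counts. Among 10 adaptor and initiator caspase genes, CYLD rose with HSF2oe without TGF-β, and with it TRAF2 and CYLD rose and RBCK1 fell. TRAF2, which brings the cIAP proteins to receptor complexes, rose by 0.67 ± 0.12 with HSF2oe under TGF-β (edgeR adjusted p = 0.00238). CYLD, a deubiquitinase gene, rose by 0.57 ± 0.12 there (edgeR adjusted p = 0.00439). With TGF-β in Mock cells, TRAF2 alone of these 10 fell, where 6.5% of all tested genes fell. That TRAF2 fall was lost without the first Mock control library and without the second Mock TGF-β library.

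Of 12 other BCL2 family genes tested, 1 rose (BCL2) and 3 fell (BMF, BNIP3 and BOK) with HSF2oe without TGF-β, and BCL2 rose and BMF and BNIP3 fell with it. The shares of all tested genes called higher and lower were 4.88% and 7.22% without TGF-β, and 9.6% and 11.9% with it. BCL2, the founding survival gene, read 1.17 and 1.28 CPM in Mock TGF-β and 2.58 and 2.39 CPM in HSF2oe TGF-β, a log2 difference of 1.01 ± 0.28 (edgeR adjusted p = 0.0223; 0.00639 to 0.104 over 16 alternatives). The BCL2 call was lost with DESeq2 (adjusted p = 0.0609), without either Mock TGF-β library (0.0799 and 0.0934) and without the first HSF2oe TGF-β library (0.104). BMF, a BH3-only gene, read 12.2 and 17.2 CPM in Mock TGF-β and 6.69 and 7.67 CPM in HSF2oe TGF-β, a log2 difference of -1.05 ± 0.21 (edgeR adjusted p = 0.00333). The BMF call was lost without the second Mock TGF-β library (-0.77, adjusted p = 0.0570). With TGF-β, BMF alone of the 12 rose in Mock cells, from 6.75 and 9.79 CPM in Mock control, by 0.83 ± 0.20 (edgeR adjusted p = 0.0140), and none fell. That rise was lost without the first Mock control library (0.59, adjusted p = 0.145) and without the second Mock TGF-β library (0.56, adjusted p = 0.200). In HSF2oe cells none of the 12 passed with TGF-β. TGF-β raised 7.32% and lowered 6.5% of all tested genes in Mock cells, and 4.45% and 3.82% in HSF2oe cells. BCL2 and BMF were named here after their values were seen, since neither call held throughout. Of 6 other inhibitor-of-apoptosis genes and antagonists tested, 0 changed with HSF2oe without TGF-β, and BIRC5 rose and XAF1 fell with it. BIRC5 alone of these 6 fell with TGF-β in Mock cells. That fall was lost without the first Mock control library and without the second Mock TGF-β library. Of 11 apoptosome and executioner caspase genes, AIFM1 fell with HSF2oe under TGF-β and none passed in the other 3 comparisons. Of 9 genes for turnover or partners of MCL1 and BCL2L11, USP9X and ITCH rose with TGF-β in Mock cells and USP9X and HUWE1 fell with HSF2oe under TGF-β. Where a listed name has no value here, its call was lost in at least 1 alternative or fell outside the rule for named genes, and it is named after its values were seen.

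**Figure D4:**
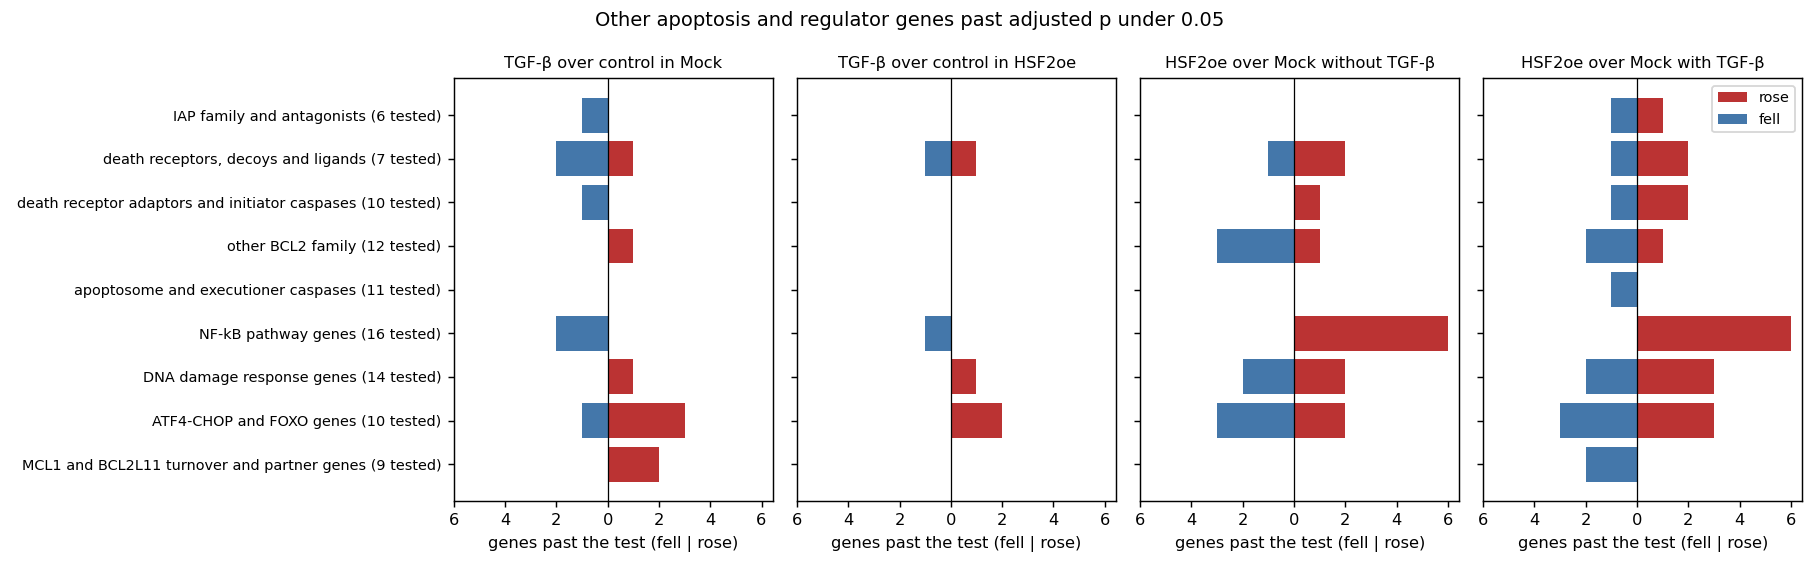
Number of genes (x axis; red to the right rose, blue to the left fell, adjusted p under 0.05 over all genes) in each pathway list (y axis, tested genes in brackets) for the 4 comparisons. The NF-κB list has 6 genes rising and none falling in both HSF2oe panels, and the DNA damage and ATF4-CHOP lists have genes on both sides.

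Over the 8 libraries, the genes whose log2 CPM ran most like that of BIRC3 were IRF2BP1, WDR5, NOP56, RRS1 and EXOSC2, with Pearson r of 0.997, 0.995, 0.995, 0.990 and 0.989 among 11676 genes whose log2 CPM averaged 1 or more. These r values describe 8 libraries that fall into plasmid groups and share their depth and scaling. Their HSF2oe differences were far smaller than that of BIRC3, from 0.25 to 0.50 without and 0.38 to 0.73 with TGF-β on the log2 scale. Of the other 9 genes, PMAIP1 had the highest r with BIRC3 at 0.76 and BBC3 the lowest at -0.85.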

How the data were processed

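RNA from 8 HS578T cultures was sequenced as stranded poly(A) libraries, per the labels. Per the file headers, the authors' whole-number gene counts come from featureCounts 2.0.1 (GENCODE 38, read pairs, no strand option). STAR 2.7.9a, edgeR 3.34.1 and GRCh38 are named per the submitters' processing notes. A second deposited table holds log2 CPM of 13169 genes, including 9 of the 10 members. BIRC3, whose lowest count was 8, is outside that table, so counts were the main data.

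The test was that of edgeR 4.0.16 (R 4.3.3) after filterByExpr, with TMM scaling, 1 mean per group over all 8 libraries, quasi-likelihood F tests (two-sided) and Benjamini-Hochberg adjustment over 16008 genes, with a threshold of 0.05. The SE is the log2 change divided by the root of F. Residual degrees of freedom were 4, and the common biological coefficient of variation 9.91%. Where replicates were technical, p-values measure technical spread alone. Alternatives were DESeq2 1.42.0, limma 3.58.1 on the deposited log2 CPM, other scalings and filters, a replicate block and each library left out. Named genes are the members, up to 3 list genes per comparison with the smallest p, and the 5 genes closest to BIRC3. Members and lists were chosen with earlier results of these data known. 1 gene of the DNA damage list is not reported here and was left out of its counts.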

Additional observations from a re-analysis of the deposited data

Results flagged for a closer look

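For FAS, both HSF2oe libraries lay below both Mock libraries without TGF-β (log2 difference -0.48, edgeR adjusted p = 0.0995) and above both with it (0.21, edgeR adjusted p = 0.489), and neither difference passed. The difference between these effects was 0.68 on the log2 scale, with an adjusted p of 0.779 by edgeR's quasi-likelihood test, so it did not pass.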

How the results depend on the processing

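Of 755 log2 values of the 10 genes under alternatives, leaving out the HSF2oe values of BIRC3, 684 kept their direction and side of the threshold, 19 lost a call, 18 gained one and 34 changed sign, each of the last on a value that did not pass. Library totals as the only scaling shifted the median of all genes by -0.27 and -0.17 for TGF-β in Mock and HSF2oe cells and by 0.09 and 0.19 for HSF2oe without and with TGF-β. Higher and lower calls there were 608 and 3885 of 4493 (1172 and 1040 by TMM) for TGF-β in Mock, 452 and 1593 of 2045 (712 and 611) in HSF2oe cells, 1432 and 807 (781 and 1156) for HSF2oe without TGF-β and 3526 and 1073 (1537 and 1912) with it. Under it, TGF-β called 2 of the 10 genes in Mock cells and HSF2oe without TGF-β called 5 of the 9 beside BIRC3 (2 by TMM). Its sign changes were, for TGF-β in Mock, MCL1 -0.13, BCL2L11 -0.20, CFLAR -0.10 and TNFRSF10B -0.23, for TGF-β in HSF2oe cells PMAIP1 -0.018, and for the difference of effects BIRC2 0.0849 and BCL2L1 0.0857. With no filter on low counts, TGF-β in Mock called 2 of the 10 and 2611 of all genes. The difference of effects then called 83 genes, and BIRC2 and BCL2L1 turned to 0.0082 and 0.0073 there. DESeq2 called 2 of the 10 and 2061 of all genes for TGF-β in Mock, and 25 genes for the difference.

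The replicate numbers were not shown to pair the samples: correlations of replicate differences between groups ran from 0.05 to 0.16 and the labels name no shared batch. A replicate block gave 3350 and 2366 calls for TGF-β in Mock and HSF2oe cells, 3614 for HSF2oe without TGF-β, 4900 with it, and 78 for the difference. For TGF-β it called 3 of the 10 in Mock cells, among them PMAIP1 (adjusted p = 0.0190), and BBC3 in HSF2oe cells (adjusted p = 0.0455). For HSF2oe without TGF-β it called 6 of the 9 genes beside BIRC3, adding FAS (adjusted p = 0.0187), TNFRSF10B, CFLAR and MCL1 to PMAIP1 and BBC3.

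Leaving out 1 library at a time gave 1143 to 2266 calls for TGF-β in Mock, 673 to 1334 in HSF2oe cells, 368 to 1993 for HSF2oe without TGF-β and 1509 to 3331 with it. Of the 10 genes, calls ran from 0 to 1 for TGF-β in either plasmid and, of the 9 beside BIRC3, from 1 to 2 for HSF2oe without TGF-β and from 1 to 2 with it. Sign changes came with these ranges: for TGF-β in Mock, TNFRSF10B -0.0545 to 0.11 and BCL2L1 -0.23 to 0.0912. For TGF-β in HSF2oe cells they were BCL2L11 -0.0374 to 0.37, CFLAR -0.20 to 0.0694, BIRC2 -0.31 to 0.14, PMAIP1 -0.11 to 0.36 and BCL2L1 -0.16 to 0.0087. For HSF2oe they were BCL2L1 -0.0326 to 0.28 without TGF-β, and CFLAR -0.0484 to 0.19 and BCL2L1 -0.0441 to 0.27 with it. For the difference of effects they were MCL1 -0.007 to 0.19, BCL2L11 -0.0854 to 0.32, BIRC2 -0.22 to 0.24, BBC3 -0.0023 to 0.46 and BCL2L1 -0.17 to 0.15. The cause of these shifts was not tested. Groups left with 1 library were assumed to vary like the others.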
